A study of Mus musculus with 4 samples.

Results

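The myosin-binding protein C genes, the M-band genes and the giant filament genes were examined as a set of 8 members: Mybpc1, Mybpc2, Mybpc3, Mybph, Myom1, Myom2, Ttn and Neb. They were chosen by gene name out of the 29595 rows of the deposited read table. In all, 7 were found by that name, and Mybpc1 was found as the row 8030451F13Rik, a synonym of Mybpc1 in RefSeq that the table describes as the slow type of the protein. RNA came from the right ventricle of 2 adult Ezh2-deficient mouse hearts (mutant 1 and mutant 3) and of 2 adult wild-type hearts (wild type 1 and wild type 2), all on a mixed C57BL/6 background. Ezh2 is the histone methyltransferase of Polycomb repressive complex 2, and the comparison asks which ventricular transcripts differ when it is lacking. The labels do not say which allele was deleted, with which driver or in which cells.

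In a sarcomere, thick filaments of myosin slide along thin filaments of actin, and the proteins described here hold that lattice together. Myosin-binding protein C sits in regular stripes on the thick filament and limits how readily myosin heads reach actin. It comes in a slow skeletal form (Mybpc1), a fast skeletal form (Mybpc2) and a cardiac form (Mybpc3), the last in humans a frequent site of mutations in inherited hypertrophic cardiomyopathy. Mybph encodes a shorter relative. Myomesin (Myom1) and M-protein (Myom2) link neighbouring thick filaments at the M-band, titin (Ttn) runs from the Z-disc to the M-band as a molecular spring, and nebulin (Neb) lies along the thin filament of skeletal muscle and is scarce in heart.

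The libraries held 21707784 and 23853394 reads in mutant 1 and mutant 3, against 20093783 and 18177642 reads in wild type 1 and wild type 2. Reads of mitochondrially encoded genes made up 40.3% and 47.3% in the mutants, against 34.7% and 41.2% in the wild types. All 8 cardiomyocyte markers looked for, such as Myh6, Tnnt2 and Actc1, had reads in every library, with summed levels of 51085 and 56995 CPM in the mutants, against 48171 and 42939 CPM in the wild types. CPM stands for reads relative to the library's total after scaling by TMM, the trimmed mean of M-values. Relative to the totals alone, the same sums were 50429 and 47119 in the mutants, against 53837 and 46952 in the wild types, so the groups overlapped. The Ezh2 row had 73 and 70 reads in the mutants, against 77 and 67 reads in the wild types, so it did not separate the groups. Since the deleted part of the gene is not given, the row is no check of the labels. Reads of the Y-linked gene Ddx3y numbered 754 and 659 in mutant hearts, against 2 and 2 in wild-type hearts, so genotype and sex cannot be told apart in any comparison below. An enzymatic step that digests abundant double-stranded DNA preceded sequencing, so abundant transcripts are under-represented and their fold changes may be compressed. In whole ventricle, fewer cells of a type and less RNA per cell cannot be told apart either.

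The upstream sequences of the slow, fast and cardiac myosin-binding protein C genes are shown because these closely related genes differed widely in their reads, with Mybpc1 at 3 to 110 reads and Mybpc3 at 25577 to 39567 reads per library. Each is the stretch of 250 bases before the annotated start, from RefSeq on GRCm38.p6, a later build than the mm9 of the read table, written 5′ to 3′ on the gene's strand. Capitals mark the E-box CANNTG, the core letters bound by basic helix-loop-helix factors, and in Mybpc3 also a MEF2 site, both searched on both strands. The positions are chr10:88605153-88605402 on the minus strand for Mybpc1, chr7:44524670-44524919 on the minus strand for Mybpc2 and chr2:91117894-91118143 on the plus strand for Mybpc3.
Mybpc1: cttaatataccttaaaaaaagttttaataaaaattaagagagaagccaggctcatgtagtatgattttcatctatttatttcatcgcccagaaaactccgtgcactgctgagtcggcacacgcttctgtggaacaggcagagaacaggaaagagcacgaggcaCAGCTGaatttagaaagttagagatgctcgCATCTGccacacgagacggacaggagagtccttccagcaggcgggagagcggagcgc
Mybpc2: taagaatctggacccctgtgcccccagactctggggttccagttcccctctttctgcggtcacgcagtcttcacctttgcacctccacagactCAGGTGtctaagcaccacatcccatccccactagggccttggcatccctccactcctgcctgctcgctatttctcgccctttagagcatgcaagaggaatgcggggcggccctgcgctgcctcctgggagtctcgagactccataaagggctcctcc
Mybpc3: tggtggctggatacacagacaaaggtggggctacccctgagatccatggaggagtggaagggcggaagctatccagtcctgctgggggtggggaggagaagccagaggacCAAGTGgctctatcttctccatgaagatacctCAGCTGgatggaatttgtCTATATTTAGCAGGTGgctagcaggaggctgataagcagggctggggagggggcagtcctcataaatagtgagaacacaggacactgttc
Mybpc1 held 2 E-boxes, Mybpc2 held 1 and Mybpc3 held 3, and 66.2% of all 32851 promoters of this length hold at least 1. The MEF2 site of Mybpc3 ends where its nearest E-box begins, without overlap, and such a site is present in 2.92% of all promoters. Ttn held 1 MEF2 site and 1 E-box as well. The sequence table matched 6 of the 8 members. The matches describe letters in the window only.

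Per length of the longest annotated coding transcript, the members fell into an abundant and a scarce group in every library. Mybpc3 stood highest, at 444 and 408 CPM per kilobase in the mutants, against 393 and 309 in the wild types. Myom1 came next with 185 and 155 CPM per kilobase in the mutants, against 175 and 149 in the wild types, then Myom2 with 152 and 116 in the mutants, against 148 and 129 in the wild types. Myom1 exceeded Myom2 within each of the 4 libraries, although their ranges overlapped. Ttn had 39.4 and 35.8 CPM per kilobase in the mutants, against 30.5 and 39.8 in the wild types. Mybpc2 was the highest of the scarce genes, at 6.47 and 7.30 CPM per kilobase in the mutants, against 5.72 and 2.54 in the wild types. Mybpc1, Neb and Mybph lay between 0.0341 and 1.31 CPM per kilobase, and their order differed between libraries.

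Differences between the groups were tested with edgeR's quasi-likelihood test over 16128 rows, on counts scaled by TMM. All 8 members were tested and 0 passed at an adjusted p (Benjamini-Hochberg) under 0.05, where 0.130% of all tested rows did, 0.105% higher and 0.0248% lower. Before adjustment, 2 members, Mybpc1 and Neb, had p under 0.05 with higher levels in the mutants and 0 with lower levels, against 6.49% and 4.38% of all rows, 10.9% in both directions. By DESeq2, 1 member passed, Mybpc1, against 1.41% of all rows. Scaling by library totals also called Mybpc1 alone (0.967% of all rows), and testing without a filter on low counts called Mybpc1 and Neb (1.44%). Limma-voom, RLE (relative log expression) scaling, upper-quartile scaling and a filter of at least 1 CPM in 2 libraries called 0 members. Of all rows, they called 0.0868%, 0.0992%, 0.0930% and 0.116% in that order. Scaled by TMM, both mutants lay above both wild types in 4 of 8 members, Mybpc1, Mybpc2, Mybpc3 and Neb, and below them in 0. Of all rows, 22.3% and 22.4% did so. In the authors' deposited ratios, mutant 1 over wild type 1 was 0.999 for Mybpc2 and 0.996 for Mybpc3. Mutant 3 over wild type 1 was 0.944 and 0.768, so without TMM the groups overlapped for both genes. The median log2 fold change was 0.27 over the 8 members and 0.00 over all tested rows.

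The calls depended strongly on single libraries, and with 1 library left out a group reduced to a single library took its spread from the remaining group. Without mutant 1, edgeR called 0 members and 0.381% of all rows. Without mutant 3 it called Mybpc1 and Neb, and 0.653% of all rows. Without wild type 1 it called Mybpc1, Mybpc2 and Neb, beside 12.2% of all rows, and without wild type 2 Mybpc1 and Neb, beside 22.0% of all rows. Members passing without a wild type are thus read against a background in which many rows pass.

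**Figure D1:**
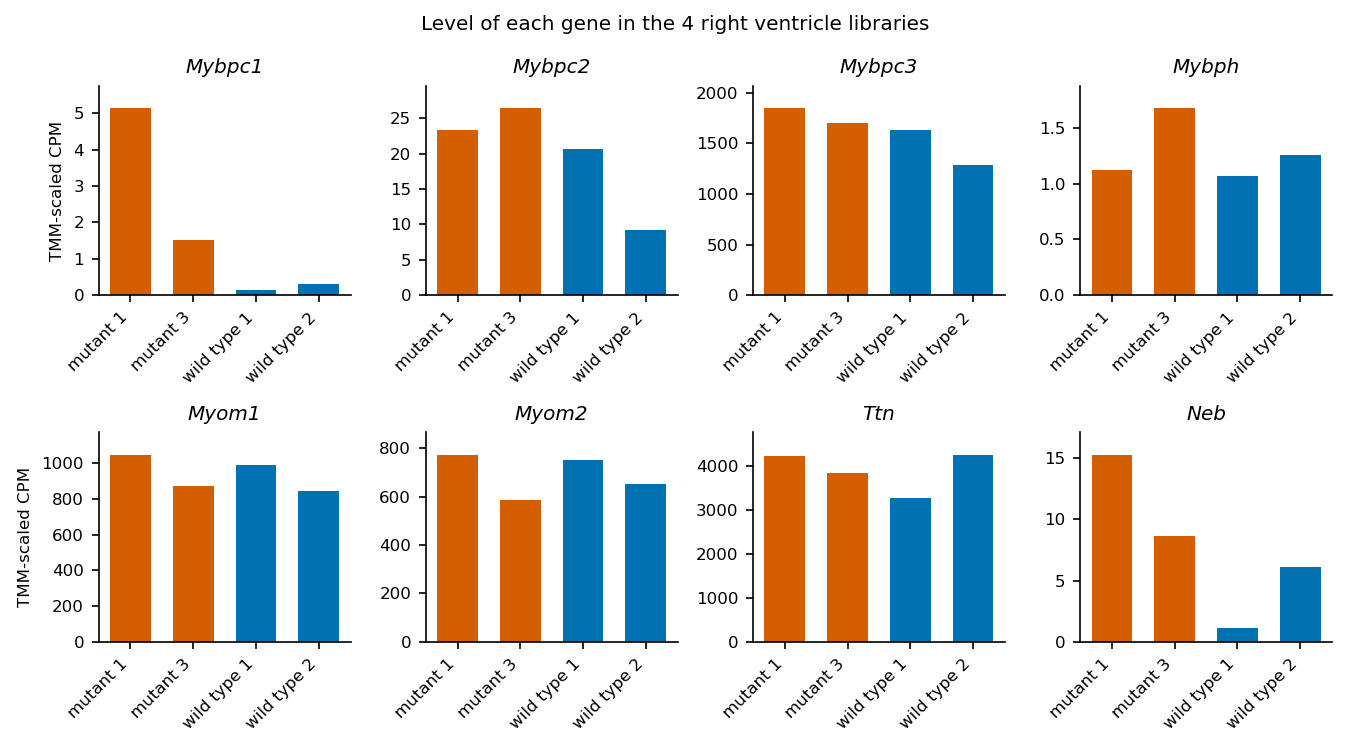
Level of each of the 8 genes in the 4 libraries, as TMM-scaled CPM on axes that start at 0, with mutants in orange and wild types in blue and 1 bar per library. Mybpc1 reached 5.13 CPM in mutant 1 and at most 0.302 CPM in a wild type, while Myom1, Myom2 and Ttn overlapped between the groups.

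Mybpc1, the slow skeletal form (mm9 chromosome 10, 87981028 to 88067759, minus strand), had the widest difference of the set. It had 110 and 30 reads in mutant 1 and mutant 3, against 3 and 6 reads in wild type 1 and wild type 2. Both mutants were above both wild types, and mutant 1 stood well above mutant 3. The levels were 3.33 ± 2.55 CPM in the mutants, against 0.218 ± 0.119 CPM in the wild types (SD, n = 2 each), with a log2 fold change of 3.92 ± 0.76 (SE). The adjusted p was 0.138 by edgeR, so it did not pass, and 0.00127 by DESeq2. By limma-voom the adjusted p was 0.276. On the summed reads the ratio was 16.0, with a 95% interval of 8.19 to 35.7 that covers counting error only. Without mutant 1 the log2 fold change was 2.81 (adjusted p = 0.972 by edgeR), and without mutant 3 it was 4.57 (adjusted p = 4.95e-06). Without wild type 1 or wild type 2 the adjusted p was 0.00625 and 0.00201.

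Mybpc2, the fast skeletal form (chromosome 7, 51757069 to 51780024, minus strand), was read more often than Mybpc1 in every library and was lowest in wild type 2. It had 501 and 520 reads in the mutants, against 464 and 182 reads in wild type 1 and wild type 2. Scaled, this was 24.9 ± 2.11 CPM in the mutants, against 14.9 ± 8.14 CPM in the wild types (SD, n = 2 each). The mutants and wild type 1 lay close together, between 20.7 and 26.4 CPM, with wild type 2 at 9.16 CPM. The log2 fold change of 0.74 ± 0.36 (SE) did not pass (adjusted p = 0.516 by edgeR). It was 1.44 without wild type 1 (adjusted p = 0.000189) and 0.26 without wild type 2 (adjusted p = 0.291), so the value rests on which wild type is kept. The wild types differed from each other 2.26-fold, a gap reached by 11.9% of all tested rows.

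The cardiac form Mybpc3 (chromosome 2, 90958301 to 90976673, plus strand) was the most abundant member per length. Its reads numbered 39567 and 33515 in the mutants, against 36780 and 25577 in the wild types. Both mutants lay narrowly above both wild types once scaled by TMM. The levels were 1846 and 1700 CPM in the mutants, against 1638 and 1287 CPM in wild-type hearts. The log2 fold change was 0.28 ± 0.26 (SE, adjusted p = 0.733 by edgeR), and -0.0042 when libraries were scaled by their totals alone. This other scaling shifted the median of all tested rows by -0.28 on the log2 scale, and under it Mybph (-0.043), Myom1 (-0.21) and Ttn (-0.18) also turned below 0, so these small differences are relative to TMM.

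Within the family, the 2 skeletal forms took a larger part of the reads in both mutants than in either wild type. Mybpc1 and Mybpc2 together made up 1.52% of the reads of the 3 myosin-binding protein C genes in mutant 1 (exact Clopper-Pearson 95% bounds 1.40 and 1.65) and 1.61% in mutant 3 (1.48 and 1.75). In wild type 1 and wild type 2 they made up 1.25% (1.14 to 1.37) and 0.730% (0.629 to 0.841). This share needs no scaling between libraries, and both mutants were above both wild types. The means were 1.57 ± 0.0663% in the mutants, against 0.992 ± 0.371% in the wild types (SD, n = 2 each). A two-sided exact permutation test over the libraries gave p = 0.333, the smallest that 2 against 2 allows. Between mutant 1 and wild type 1 the gap in the share lay in Mybpc1, with 110 and 3 reads. For Mybpc2 and Mybpc3 the authors' deposited ratios of mutant 1 over wild type 1 were 0.999 and 0.996, so Mybpc2 relative to Mybpc3 hardly differed there. Of the reads of the 2 skeletal genes, Mybpc1 took 18.0% and 5.45% in the mutants, against 0.642% and 3.19% in the wild types. The intervals cover counting error only, and mutant 3 (3.71 to 7.70) overlapped wild type 2 (1.18 to 6.82).

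Mybph (chromosome 1, 136090025 to 136097809, plus strand) was scarce and overlapped between the groups. It had 24 and 33 reads in the mutants, against 24 and 25 reads in wild-type hearts. The log2 fold change was 0.26 ± 0.47 (SE, adjusted p = 0.871 by edgeR). Its row overlaps Adora1, an adenosine receptor gene on the opposite strand, and 46.5% of the 30-base words of its transcripts also occur in transcripts of another gene, most often Adora1. Adora1 had 167 and 280 reads in the mutants, against 366 and 232 in the wild types. The sources used here do not give the use of strand in counting, so reads of the overlap may be in either row. Only protein-coding transcripts were searched for these words. Among them, 6 of the other 7 members shared 0 words with any other gene, including each other. Myom1 shared 2.52%, most often with Myl12a.

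The M-band genes overlapped between the groups. Myom1 (chromosome 17, 71368897 to 71476196, plus strand) had 22417 and 17226 reads in the mutants, against 22172 and 16729 reads in the wild types. Its level was 960 ± 122 CPM in the mutants, against 914 ± 103 CPM in the wild types (SD, n = 2 each), with a log2 fold change of 0.07 ± 0.25 (SE, adjusted p = 0.941 by edgeR). In each group 1 library stood high and 1 low, namely mutant 1 over mutant 3 and wild type 1 over wild type 2.

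Myom2 (chromosome 8, 15057653 to 15133541, plus strand) had 16564 and 11578 reads in the mutants, against 16924 and 12992 reads in the wild types. The same libraries stood high and low as for Myom1. The levels of 680 ± 131 CPM in the mutants, against 704 ± 70.7 CPM in the wild types (SD, n = 2 each) gave a log2 fold change of -0.05 ± 0.25 (SE, adjusted p = 0.959 by edgeR). As a share of the reads of Myom1 and Myom2, a measure added after the data were seen, Myom2 took 42.5% and 40.2% in the mutants, against 43.3% and 43.7% in the wild types. Both mutants were below both wild types by this share. The 95% counting intervals of mutant 1 (42.0 to 43.0) and wild type 1 (42.8 to 43.8) overlapped. The mutant mean minus the wild-type mean was -2.16 percentage points, and the exact permutation test gave p = 0.333, its smallest possible value.

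Ttn (chromosome 2, 76542041 to 76820604, minus strand) had the most reads of the set. It had 90269 and 75473 reads in the mutants, against 73266 and 84443 reads in the wild types. The scaled levels were 4212 and 3827 CPM in the mutants, between 3262 CPM in wild type 1 and 4248 CPM in wild type 2. The log2 fold change was 0.10 ± 0.29 (SE, adjusted p = 0.927 by edgeR). A gene-level count does not separate the long, compliant isoforms of titin from the short, stiff ones. Rbm20, the splicing factor that sets the choice between those isoforms, is named here after its values were seen. It was lower in both mutants than in both wild types, as 22.4% of all rows were, without passing (adjusted p = 0.697 by edgeR). The levels were 67.9 ± 4.68 CPM in the mutants, against 81.4 ± 12.5 CPM in the wild types (SD, n = 2 each). Mutant 3, at 71.2 CPM, and wild type 1, at 72.5 CPM, were near each other.

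Neb (chromosome 2, 51992167 to 52194318, minus strand) lay above both wild types in both mutants without passing the test, and was lowest in wild type 1. It had 327 and 171 reads in the mutants, against 25 and 121 reads in wild type 1 and wild type 2. This was 15.3 and 8.67 CPM in the mutants, against 1.11 and 6.09 CPM in the wild types, so mutant 3 and wild type 2 were near each other. The mean levels were 12.0 ± 4.66 CPM in the mutants, against 3.60 ± 3.52 CPM in the wild types (SD, n = 2 each). The log2 fold change of 1.74 ± 0.66 (SE) did not pass (adjusted p = 0.399 by edgeR). The wild types differed 5.47-fold, a gap reached by 2.18% of all tested rows. Without wild type 1 the log2 fold change was 0.98 (adjusted p = 0.0400) and without wild type 2 it was 3.42 (adjusted p = 4.24e-05). Without mutant 3 it was 2.10 (adjusted p = 0.00442), and without mutant 1 it was 1.29 (adjusted p = 0.713). Set against titin, the other giant protein of the sarcomere, by a measure added after the data were seen, there were 3.62 and 2.27 Neb reads per 1000 Ttn reads in the mutants, against 0.341 and 1.43 in the wild types. In the authors' deposited table, the ratio of mutant 1 to wild type 1 was 12.1 and to wild type 2 was 2.26, and that of mutant 3 was 5.76 and 1.08.

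**Figure D2:**
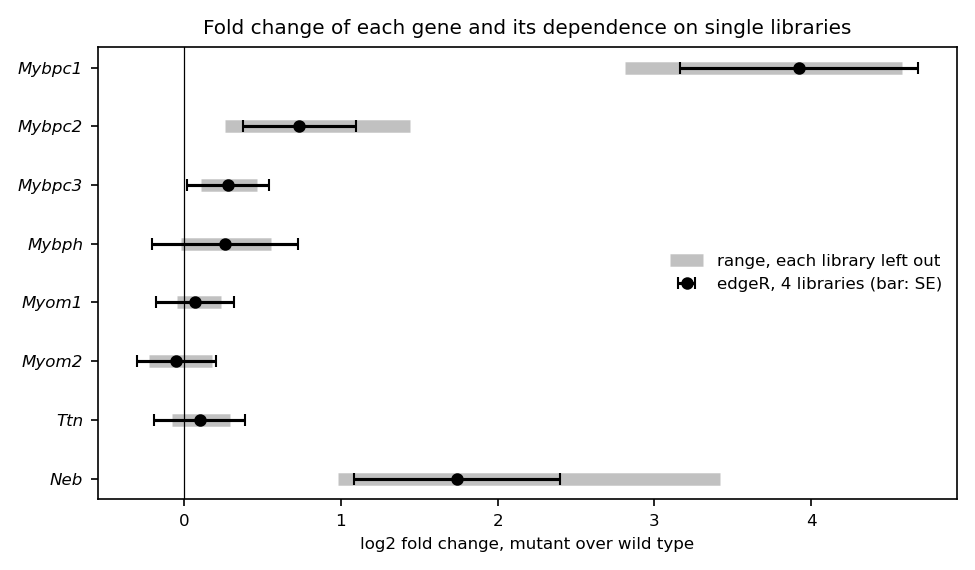
Log2 fold change of each gene, mutant over wild type, by edgeR on all 4 libraries (points, bars 1 SE) and its range when each library is left out in turn (grey). Mybpc1 stayed between 2.81 and 4.58 and Neb between 0.98 and 3.42, while the ranges of Mybph, Myom1, Myom2 and Ttn included 0.

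**Figure D3:**
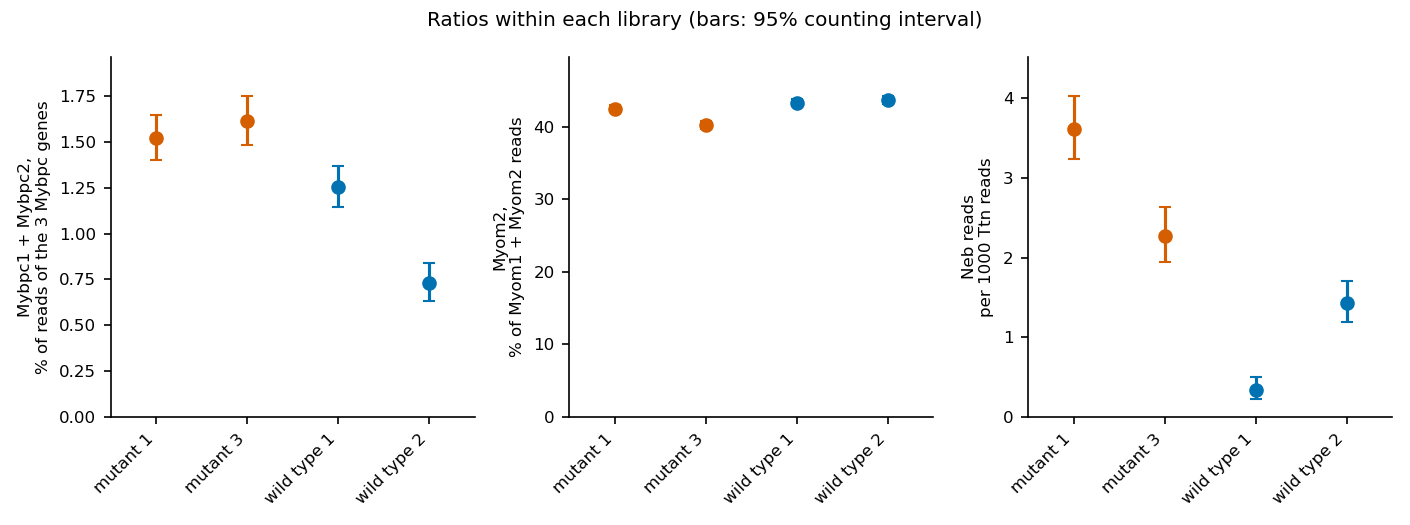
Reads of Mybpc1 and Mybpc2 as a percent of the 3 myosin-binding protein C genes, of Myom2 as a percent of Myom1 and Myom2, and of Neb per 1000 Ttn reads, for each library with its 95% counting interval, on axes that start at 0. In mutant 1 and mutant 3 the first was 1.52% and 1.61%, above the 1.25% and 0.730% of the wild types, and Neb per 1000 Ttn was lowest in wild type 1, at 0.341.

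Of 10 markers of fast skeletal muscle fibres, 10 were highest in mutant 1. So were 5 of the 8 members, Mybpc1 and Neb but also Mybpc3, Myom1 and Myom2. Mutant 3 was also above both wild types in 3 of the markers (Tnnt3, Myh4 and Tnnc2, the last too low to be tested). Of all tested rows, 22.3% had both mutants above both wild types. The share of all rows highest in mutant 1 was not computed, so the counts highest in that library have no background here. The summed level of the 10 markers was 356 and 50.2 CPM in mutant 1 and mutant 3, against 29.7 and 32.2 CPM in the wild types. All were read in every library except the fast troponin gene Tnnc2, at 0 reads in wild type 2. Of 9 tested, 0 passed by edgeR, 7 were higher at an unadjusted p under 0.05 and 1 passed by DESeq2. The shares of all rows were 0.130%, 6.49% and 1.41% in that order. The lowest p belonged to the fast myosin gene Myh4, with 951 and 655 reads in the mutants, against 224 and 238 in the wild types (adjusted p = 0.0638 by edgeR). Myosin heavy chain genes are close in sequence, so the split of their reads is uncertain. Tnnt3, the fast troponin T gene, had 1516 and 20 reads in the mutants, against 8 and 5 in the wild types (adjusted p = 0.238 by edgeR). Mybpc2, itself the fast form, was not highest in mutant 1, at 23.4 and 26.4 CPM in mutant 1 and mutant 3.

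The 5 genes listed as slow fibre markers, Tnnt1, Tnni1, Myh7b, Casq1 and Myl6b, summed to 167 and 157 CPM in the mutants, against 53.7 and 89.2 CPM in the wild types, and none was at 0 in any library. Casq1 encodes the calsequestrin of skeletal muscle, which is most abundant in fast fibres, and without it the sums were 147 and 118 CPM in the mutants, against 38.8 and 79.6 CPM in the wild types. Of the 5, 0 passed by edgeR, 3 were higher at an unadjusted p under 0.05 and 2 passed by DESeq2. Of all rows, 0.130%, 6.49% and 1.41% did so. The 3 were Tnnt1, Tnni1 and Casq1, while Myh7b and Myl6b overlapped between the groups. Tnnt1, the slow troponin T gene, had 1815 and 869 reads in the mutants, against 299 and 226 in the wild types (adjusted p = 0.0654 by edgeR). Tnni1, the slow troponin I gene, had 70 and 45 reads in the mutants, against 1 and 4 in the wild types (adjusted p = 0.0751 by edgeR). Tnni1 was also the listed gene nearest to Mybpc1 in its pattern over the 4 libraries, at a Euclidean distance of 1.54 in centred log2 CPM, a distance within which 18 of 16128 tested rows lay. The part of skeletal fibres, or of slow fibre genes read in ventricular tissue, in the values of Mybpc1 and Neb was not tested.

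**Figure D4:**
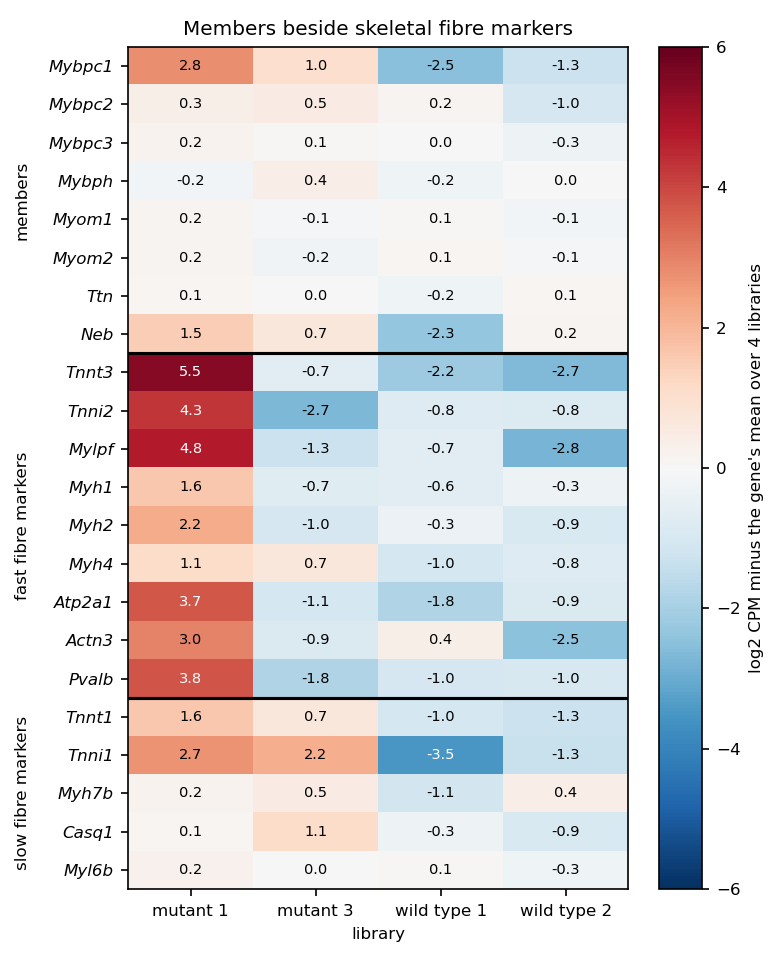
Log2 CPM minus each gene's mean over the 4 libraries, for the 8 members and the tested fast and slow fibre markers, with libraries as columns and 1 gene per row. Fast markers such as Tnnt3 were high in mutant 1 alone while Myh4 was above its mean in both mutants, Mybpc1 and Tnni1 were above their mean in both mutants, and the cardiac members stayed near 0.

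Partners of the thick filament and the M-band went both ways. Of 18 tested, 0 passed by edgeR and 1 by DESeq2, against 0.130% and 1.41% of all rows. By unadjusted p under 0.05, 3 were higher and 0 lower, against 6.49% and 4.38% of all rows. Above 0 in log2 fold change were 9, and 9 were below. Their median log2 fold change was 0.08, against 0.00 over all tested rows. The lowest p belonged to Trim54, a muscle ubiquitin ligase, at 183 ± 31.6 CPM in the mutants, against 108 ± 34.6 CPM in the wild types (SD, n = 2 each; adjusted p = 0.381 by edgeR). The ventricular regulatory light chain gene Myl2 followed, at 17703 ± 1069 CPM in the mutants, against 9653 ± 1722 CPM in the wild types (SD, n = 2 each; adjusted p = 0.403 by edgeR).

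Relatives of the members outside the set of 8 were looked up after their values were seen. The third myomesin gene, Myom3, had 115 and 61 reads in the mutants, against 26 and 50 reads in wild-type hearts (log2 fold change 1.21 ± 0.46 SE, adjusted p = 0.409 by edgeR). Its order over the libraries was that of Neb, and Myom3 was the listed gene nearest to Neb, at a distance of 1.29, within which 232 tested rows lay. Mybphl, a relative of Mybph known from the atria, had 91 and 57 reads in the mutants, against 38 and 1 reads in the wild types (adjusted p = 0.469 by edgeR). Atrial light chain genes were low in the same library: Myl7 had 1658 and 1218 reads in the mutants, against 665 and 54 reads in wild type 1 and wild type 2. All 6 atrial markers summed to 3466 and 3099 CPM in the mutants, against 438 and 182 CPM in the wild types, and without Nppa, which made up most, to 154 and 127 CPM in the mutants, against 62.7 and 9.26 CPM in the wild types. Of 5 tested, 1 passed by edgeR, beside 0.130% of all rows. It was Nppa, the atrial natriuretic peptide gene that stressed ventricles also express (log2 fold change 3.52 ± 0.41 SE, adjusted p = 0.0316 by edgeR). The atrial marker Bmp10 had 1 and 0 reads in the mutants, against 0 and 0 in the wild types, and the part of atrial RNA was not tested. Nebl, the cardiac relative of nebulin, had 1941 and 1763 reads in the mutants, against 640 and 2526 reads in the wild types, so it was lowest in wild type 1, as Neb was.

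Of the partners of titin and nebulin, 22 were listed. Of 21 tested, 17 had a log2 fold change above 0 and 4 below. By unadjusted p under 0.05, 6 were higher and 0 lower, against 6.49% and 4.38% of all rows. In all, 1 passed by edgeR and 3 by DESeq2, against 0.130% and 1.41% of all rows. Their median log2 fold change was 0.35, against 0.00 over all tested rows. The called gene was Ankrd1, a stretch-responsive protein that binds the N2A region of titin, with 52135 and 53057 reads in the mutants, against 7073 and 6116 reads in wild-type hearts (log2 fold change 3.04 ± 0.27 SE, adjusted p = 0.00920 by edgeR). Ankrd23, of the same family, was the listed gene nearest to Mybpc2, at a distance of 0.33, within which 78 tested rows lay. It had 7040 and 6221 reads in the mutants, against 4733 and 2163 reads in the wild types (adjusted p = 0.327 by edgeR).

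The nearest listed genes of the other members lay at shorter distances, and these members varied little between libraries. For Mybpc3 they were Myl6b and Sqstm1, both at 0.14, for Myom1 Myl6b at 0.14 and for Myom2 Mylk3 at 0.22 and Cmya5 at 0.22. Ttn was nearest to Capn3 at 0.23 and Trim55 at 0.28, and Mybph to Myh7 at 0.14 and Lmod3 at 0.24. From 18 tested rows, for Myh7 beside Mybph, up to 1007, for Trim55 beside Ttn, lay within these distances. The listed genes that came second for the scarce members were Ankrd1 for Mybpc1, at 1.77, Trim54 for Mybpc2, at 0.52, and Myh4 for Neb, at 1.61.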

How the data were processed

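Polyadenylated RNA libraries were treated with a duplex-specific nuclease and, per the submitters' processing notes, read with TopHat 1.2.0 and Cufflinks on mm9. The sources used here do not state a counting rule, strand use or annotation. The authors deposited whole-number read counts, the input here, and normalised values that equal CPM, which were checked and not used further. The authors' deposited ratios (fold) of library pairs are quoted for Neb, and for Mybpc2 and Mybpc3 against wild type 1. The deposited p-value of each pair was not used. Starts were raised by 1, since 13 of 13 mitochondrial genes then matched an annotation.

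The test was the quasi-likelihood test of edgeR 4.0.16 under R 4.3.3, after filterByExpr and TMM, on all 4 libraries without covariates. It was also run on simulated data with 4-fold changes and the same dispersion for every row. Rows as scarce as Mybpc1 or Mybph were not changed there, so the simulation is no check for them. SEs come from the quasi-likelihood F statistic. Members, partner lists and markers were chosen with earlier results of these data known. Text names all members and, per list, called genes or the 2 of smallest p, plus the 2 listed genes nearest each member. A gene that this rule names is not reported here. Labels name no litter or batch, so p-values measure the spread between these libraries. DESeq2 1.42.0, limma 3.58.1 (voom), other scalings, filters and left-out libraries were alternatives. Of 6 fibroblast and 6 endothelial markers, 0 and 0 passed by edgeR, beside 0.130% of all rows. Transcript lengths came from GENCODE M21 (GRCm38).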

Additional observations from a re-analysis of the deposited data

How the results depend on the processing

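The number of rows called was 21 with edgeR, 227 with DESeq2, 156 with scaling by totals, 317 without a filter and 8 without rows on X and Y, an alternative chosen after seeing the data. Leaving out 1 library gave 63 to 3675, and a group left with 1 library was assumed to vary like the other. Members called numbered 0 in edgeR, 1 with DESeq2, 1 with totals, 2 without a filter and 0 to 3 with a library left out. Calls in the partner and fibre lists numbered 7, 9, 12 and 4 to 23 in the same order, against 1 in edgeR. On all 4 libraries, 53 genes of these lists were tested. Of all rows, 1.41%, 0.967%, 1.44% and 0.381% to 22.0% passed in that order, against 0.130%. The 23 calls came without wild type 1, where 12.2% of all rows passed, so they are read against that background. Mybpc1 had a log2 fold change of 3.94 with DESeq2, 3.70 with totals and 3.92 without a filter, each called, and 2.81 to 4.58 with a library left out. It was not called by limma-voom, at 3.69 (adjusted p = 0.276). Nor did edgeR call it with RLE scaling (3.92), upper-quartile scaling (3.93) or at least 1 CPM in 2 libraries (3.93). These settings, and leaving out mitochondrial rows or rows on X and Y, called 0 members. Neb was called without a filter (1.74) and ranged over 0.98 to 3.42, and Mybpc2 over 0.26 to 1.44. Scaling by totals turned the sign of Mybpc3 (-0.0042), Mybph (-0.043), Myom1 (-0.21) and Ttn (-0.18), none called. With a library left out, Mybpc3 ranged over 0.11 to 0.46, Mybph over -0.019 to 0.56, Myom1 over -0.046 to 0.23, Myom2 over -0.22 to 0.17 and Ttn over -0.078 to 0.30. The skeletal share differed by 0.576 percentage points (0.314 to 0.838, and 0.573 with Mybph counted), the Myom2 share by -2.16 (-3.31 to -1.01) and Neb per 1000 Ttn by 2.06 (1.38 to 2.74). The cause of these shifts was not tested. Depth limits Mybpc1 and Mybph most, with 3 to 110 and 24 to 33 reads. No paired analysis was possible because the labels name no pairs of mutant and wild-type hearts.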
